A study of Mus musculus with 12 samples.

Results

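The genes described here encode the subunits of the corepressor complexes that carry class I histone deacetylases. The 39 genes were taken by name, as subunits of the SIN3, NuRD, CoREST, NCoR, MIER and MiDAC complexes, out of 18929 genes listed in the deposited count tables. All 39 were listed, and 38 had enough counts to be tested. Trerf1, a MiDAC gene, had 1 to 7 counts per library and was not tested. RNA-Seq counts came from murine enteroids, epithelial cultures grown from jejunal crypts and kept for 5 days in ENR medium, which supplies EGF, Noggin and R-spondin. There were 4 libraries from villin-Cre control, 4 from Hdac1-deficient and 4 from Hdac2-deficient enteroids, and the villin promoter drives Cre in the intestinal epithelium, so the floxed Hdac1 or Hdac2 gene was deleted in epithelial cells. The mice had a mixed C57BL/6 J, 129SV and CD1 background. The crypts came from a single mouse per genotype as the methods read, so whether the 4 libraries of each group stand for 4 animals is not known. The p-values measure the spread between these libraries, and genotype, mouse and culture line cannot be told apart.

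HDAC1 and HDAC2 remove acetyl groups from lysines of histones, and in cells they work almost entirely as the catalytic subunits of large complexes. SIN3A and SIN3B are scaffolds on which SIN3 assembles, NuRD joins a deacetylase to an ATP-dependent nucleosome remodeller, and CoREST joins it to the histone demethylase KDM1A. The MTA and RCOR proteins hold the deacetylase through an ELM2-SANT module, which the MIER proteins share, and the NCoR complex carries HDAC3 in its place. Several subunits exist as related proteins made by separate genes, and the related proteins usually occupy the same place in a complex, so a change in their proportions changes which version of the complex can be built.

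Each library held 20693200 to 30658628 counts, and a count of 3, used as the floor of detection, equalled 0.0979 to 0.145 CPM (counts scaled to the library size), a limit that covers counting error only. Hdac1 was at 90.6 CPM in control and 4.23 CPM in Hdac1-deficient enteroids, and Hdac2 was at 137.0 CPM in control and 75.9 CPM in Hdac2-deficient enteroids, so each targeted gene was lowest in the libraries labelled with its deletion. Hdac3 was at 146.1 CPM in control, at 116.2 CPM after loss of Hdac1 and at 123.8 CPM after loss of Hdac2. The libraries carried epithelial markers at 6733 to 8870 CPM in sum, whereas the 6 non-epithelial markers listed in both tables, of 12 looked for, summed to 9.72 to 14.6 CPM, with Ptprc, Col1a1, Pdgfra and Pecam1 at or below 0.376 CPM on average in every group. Markers of epithelial cell types moved with genotype. All 6 stem cell markers were lower and all 8 enterocyte markers higher in each mutant, and 6 of 8 proliferation markers were lower in each, while Pcna was higher and Mki67 did not pass. Stem cell markers summed to 4637 to 4769 CPM in control libraries, to 2776 to 3222 CPM after loss of Hdac1 and to 2488 to 2720 CPM after loss of Hdac2. Of 7 goblet cell markers 3 were higher and 1 lower in Hdac1-deficient enteroids, and 6 higher and 0 lower in Hdac2-deficient enteroids. They summed to 1601 to 1859 CPM in control, 1728 to 1853 after loss of Hdac1 and 2675 to 2905 after loss of Hdac2. Paneth cell markers summed to 2255 to 2597 CPM, 3115 to 3380 CPM and 3353 to 3500 CPM in the same order, and of 6 tested 2 were higher and 2 lower in Hdac1-deficient enteroids and 4 higher and 1 lower in Hdac2-deficient enteroids. Of 7 enteroendocrine markers 4 were higher and 1 lower, and 3 higher and 2 lower. Of 5 tuft cell markers, which summed to at most 8.56 CPM, 1 was higher in Hdac1-deficient and 2 were lower in Hdac2-deficient enteroids. The part of these shifts in the subunit levels was not tested, and in bulk RNA fewer cells of a type and less RNA per cell cannot be told apart.

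In control enteroids the subunits differed widely in abundance. Per kilobase of exon, the level ran from 93.9 CPM for Rbbp7, a histone chaperone of SIN3 and NuRD, down to 1.38 CPM for Rcor3 among tested genes. Mta2 was second at 69.8 CPM per kilobase, followed by the methyl-CpG-binding domain gene Mbd3 at 53.3, the remodeller ATPase gene Chd4 at 41.5 and the SIN3 subunit gene Sap30 at 38.0. Rcor1 at 20.9, Ncor1 at 20.3 and Sin3a at 17.2 CPM per kilobase lay in the middle of the order. The MIER genes lay lower in the order, with Mier2 at 6.56, Mier1 at 5.02 and Mier3 at 3.14 CPM per kilobase.

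Loss of either deacetylase left most subunit transcripts close to their control level, and a few moved by more. With edgeR's quasi-likelihood F test and an adjusted p of at most 0.05, 14 of 38 members were higher and 13 were lower in Hdac1-deficient enteroids, which is 36.8% and 34.2% of them, beside 32.7% and 31.9% of all 14246 genes tested. In Hdac2-deficient enteroids 8 were higher and 17 lower, or 21.1% and 44.7%, beside 31.4% and 30.9% of 14007 genes. A change of over 2-fold was passed by 0 of 38 members in Hdac1-deficient enteroids, beside 10.6% of all genes, and DESeq2 also gave 0. In Hdac2-deficient enteroids 1 member, Rcor2, passed the 2-fold limit, beside 8.30% of all genes. An unadjusted p under 0.05 (edgeR) was found for 30 of the 38 members in Hdac1-deficient enteroids, beside 9620 of all 14246 genes. In Hdac2-deficient enteroids it was found for 26 of the 38, beside 9205 of 14007 genes. The change stayed within 20% of control for 26 members in Hdac1-deficient and 28 members in Hdac2-deficient enteroids, or 68.4% and 73.7%, where 51.6% and 55.6% of all genes did. All tested members were at 10.5 CPM or more on average, and among the 9264 tested genes at or above that level the share over 2-fold was smaller, at 3.69% and 2.62%, and the share within 20% larger, at 62.9% and 66.3%, so the members lay closer to genes of their own abundance than to all genes. The 4 mutant libraries did not overlap the 4 control libraries for 23 members in the Hdac1 comparison (60.5%, beside 58.4% of all genes) and for 22 in the Hdac2 comparison (57.9%, beside 56.0%). The median log2 fold change over the members was -0.004 and -0.07, and over all genes -0.004 in both. Both comparisons use the same 4 control libraries.

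**Figure D1:**
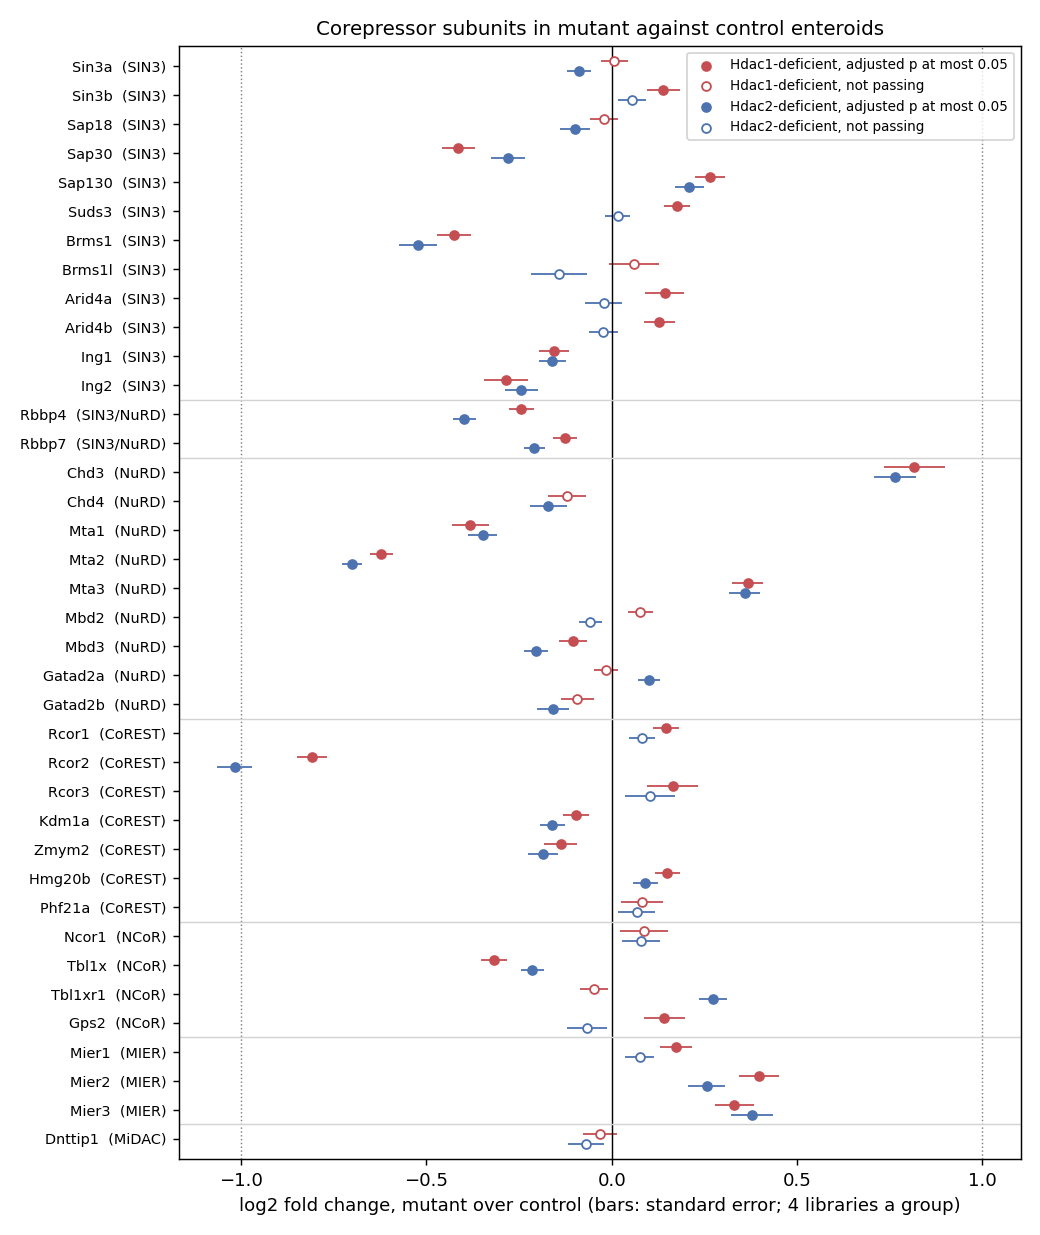
Log2 fold change of the 38 tested subunit genes (x axis, bars are standard errors) in Hdac1-deficient (red) and Hdac2-deficient (blue) over control enteroids, 4 libraries a group, grouped by complex (y axis). Filled points passed an adjusted p of at most 0.05 and open points did not, and dotted lines mark a 2-fold change. Most points lie near 0, Chd3 stands furthest to the right at 0.82 and 0.77, and Rcor2 furthest to the left at -0.81 and -1.02.

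In the CoREST complex, Rcor2 fell most and Rcor1 did not fall. Of its 7 members 3 were higher and 3 lower in Hdac1-deficient enteroids (42.9% and 42.9%, beside 32.7% and 31.9% of all genes), and 1 was higher and 3 lower in Hdac2-deficient enteroids (14.3% and 42.9%, beside 31.4% and 30.9%), with medians of 0.08 and 0.07 on the log2 scale. RCOR1, RCOR2 and RCOR3 are alternative scaffolds that tie the deacetylase to KDM1A and to the nucleosome. Rcor2 (ENSMUSG00000024968; GRCm38 chromosome 19, 7267325 to 7275225, plus strand) was at 60.1, 57.6, 60.6 and 57.8 CPM in the control libraries. It was at 33.0, 32.6, 35.1 and 32.7 CPM after loss of Hdac1 and at 29.8, 27.2, 27.0 and 31.7 CPM after loss of Hdac2. Every mutant library was thus far under every control library. The log2 fold change of Rcor2 was -0.81 (standard error, SE, 0.04, adjusted p = 1.3e-12, edgeR) in Hdac1-deficient and -1.02 (SE 0.05, adjusted p = 9.7e-14, edgeR) in Hdac2-deficient enteroids. The 2-fold limit rested on single libraries, since the log2 fold change was -0.99 without Hdac2-deficient replicate 2 or replicate 3. Chromosome 19 as a whole was lower in both mutants, with medians of -0.53 and -0.52 over its tested protein-coding genes.

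Rcor1 was at 117.1, 121.4, 124.1 and 113.5 CPM in control, at 132.3, 135.2, 127.8 and 126.3 CPM after loss of Hdac1 and at 118.3, 129.3, 127.2 and 125.5 CPM after loss of Hdac2. It rose in Hdac1-deficient enteroids with no overlap (log2 fold change 0.15, adjusted p = 0.0013, edgeR). After loss of Hdac2 its log2 fold change was 0.08 (adjusted p = 0.052, edgeR). This second change did not pass in 13 of 17 alternatives, the 1.5-fold test not counted. The fits where it passed included those without control replicate 3 or Hdac2-deficient replicate 1 (0.10 and 0.11). Kdm1a, the demethylase gene, was slightly lower in both (log2 fold change -0.10 and -0.16), as was Zmym2, which encodes a zinc finger protein of the complex (-0.14 and -0.19). In Hdac1-deficient enteroids the call of Kdm1a was lost without Hdac1-deficient replicate 2 (-0.09) and that of Zmym2 without Hdac1-deficient replicate 3 (-0.10). Hmg20b, which encodes an HMG box subunit, was slightly higher in both (0.15 and 0.09). The second call held in 9 of 17 alternatives, and was lost when any of 5 libraries was left out (0.06 to 0.09). Phf21a, whose product reads unmethylated histone H3, did not pass in either mutant (0.08 and 0.07). Rcor3 passed in Hdac1-deficient enteroids at 0.17 (adjusted p = 0.042, edgeR), but kept that call in 5 of 17 alternatives, the 1.5-fold test not counted (0.11 to 0.22 over all 17), losing it with DESeq2 and when any of 6 libraries was left out (0.11 to 0.17). It shares 1136 of its 13622 exon bases with genes on the opposite strand, and whether the counting used strand is not given in the sources used here.

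The sequences upstream of 3 members are shown as a description, and their part in the changes was not tested. The 3 members were picked by the size of their change among members with a promoter sequence at hand. Rcor2 and Mta2 fell most in both mutants, and Tbl1xr1 differed most between the mutants. Chd3, which rose most in both mutants, had no such sequence. Shown are RefSeq promoter sequences (GRCm38.p6), plus strand, from 250 to 71 bases before their own transcription start. They lie at chr19:7267144-7267323, chr19:8941670-8941849 and chr3:22076402-22076581. For Rcor2 and Mta2 that start differs from the GENCODE gene start printed in this text. Capitals mark GGGCGG, the core of a GC box bound by SP/KLF factors, or its reverse complement CCGCCC.
Rcor2: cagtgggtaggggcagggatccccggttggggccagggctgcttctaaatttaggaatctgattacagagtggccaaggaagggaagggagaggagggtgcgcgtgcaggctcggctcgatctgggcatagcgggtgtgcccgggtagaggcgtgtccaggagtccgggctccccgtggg
Mta2: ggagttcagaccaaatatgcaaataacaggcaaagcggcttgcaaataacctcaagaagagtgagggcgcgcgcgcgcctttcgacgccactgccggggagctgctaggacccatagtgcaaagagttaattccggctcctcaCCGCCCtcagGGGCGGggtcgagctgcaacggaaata
Tbl1xr1: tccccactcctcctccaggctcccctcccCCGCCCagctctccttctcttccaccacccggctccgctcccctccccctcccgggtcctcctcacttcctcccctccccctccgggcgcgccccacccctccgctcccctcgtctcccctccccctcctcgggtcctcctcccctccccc
The window of Mta2 held 2 matches, that of Tbl1xr1 held 1, and that of Rcor2 held 0. Of 47 such windows found for 33 members, 35 held the motif on either strand, or 74.5%, against 21.1% of all 32851 windows. CCAAT or ATTGG was in 21 of the 47 windows (44.7%, against 25.0%), and CCGGAAG or CTTCCGG in 1 (2.13%, against 3.33%). TTTCGCGC and TTTGGCGC, searched on both strands, were in 0 of the 47. The 32851 windows were not matched to the members by expression, so whether these shares are particular to the members was not tested. These are counts of letters in windows and no measure of binding.

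NuRD showed the largest rise and a large fall side by side. Of its 11 members 2 were higher and 5 lower in Hdac1-deficient enteroids (18.2% and 45.5%, beside 32.7% and 31.9% of all genes), and 3 were higher and 7 lower in Hdac2-deficient enteroids (27.3% and 63.6%, beside 31.4% and 30.9%), with medians of -0.11 and -0.17 on the log2 scale. Chd3 and Chd4 encode alternative ATPases of the complex. Chd3 (ENSMUSG00000018474; chromosome 11, 69343273 to 69369406, minus strand) was at 44.3, 53.6, 54.3 and 53.3 CPM in the control libraries. It was at 89.3, 78.2, 90.7 and 100.2 CPM after loss of Hdac1 and at 87.5, 81.5, 88.8 and 88.9 CPM after loss of Hdac2. The lowest mutant library stood well above the highest control library, and the rise was 1.76-fold (log2 fold change 0.82, SE 0.08, adjusted p = 7.6e-06, edgeR) and 1.70-fold (log2 fold change 0.77, SE 0.06, adjusted p = 1.4e-08, edgeR). Control replicate 1 was lower than the other control libraries, and without it the log2 fold changes were 0.75 and 0.69.

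Chd4, the more abundant ATPase gene, was at 293.4, 351.0, 354.4 and 330.7 CPM in control, at 318.6, 303.6, 290.9 and 297.6 CPM after loss of Hdac1 and at 291.7, 291.3, 287.6 and 301.2 CPM after loss of Hdac2. For Chd4 control replicate 1 lay among the mutant libraries, so the groups overlapped. The log2 fold change was -0.12 (adjusted p = 0.0501, edgeR) and -0.17 (adjusted p = 0.010, edgeR). In Hdac1-deficient enteroids it passed with TMM factors from autosomes outside chromosome 19 (-0.13), in the fit of 12 libraries (-0.13), and without control replicate 1 (-0.18) or Hdac1-deficient replicate 1 (-0.14).

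The 3 MTA genes, which encode the deacetylase-holding subunits of NuRD, went different ways. Mta2 (ENSMUSG00000071646; chromosome 19, 8941875 to 8952303, plus strand), by level the leading gene of the 3, was at 287.8, 291.0, 285.3 and 279.2 CPM in control libraries. It was at 184.4, 183.3, 179.9 and 188.1 CPM after loss of Hdac1 and at 174.3, 175.9, 175.3 and 172.2 CPM after loss of Hdac2. All mutant libraries were at about the same low level, and the log2 fold change was -0.62 (SE 0.03, adjusted p = 4.8e-13, edgeR) and -0.70 (SE 0.03, adjusted p = 4.1e-15, edgeR). The tested protein-coding genes of chromosome 19 had a median of -0.53 and -0.52, and the part of that shift in the fall of Mta2 was not tested. Mta1 was at 92.1, 92.4, 93.2 and 86.4 CPM in control, at 70.7, 73.2, 72.3 and 60.4 CPM after loss of Hdac1 and at 66.3, 74.3, 71.8 and 71.7 CPM after loss of Hdac2. It fell without overlap by 0.38 and 0.35 on the log2 scale (adjusted p = 2.5e-06 and 9.8e-08, edgeR). Mta3 was at 38.5, 41.7, 40.2 and 37.5 CPM in control, at 50.5, 49.5, 51.1 and 50.5 CPM after loss of Hdac1 and at 50.3, 52.1, 49.3 and 49.2 CPM after loss of Hdac2. In contrast to the other two it rose, again without overlap, by 0.37 and 0.36 on the log2 scale (adjusted p = 2.1e-07 and 2.2e-07, edgeR).

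Among the remaining NuRD subunits, Mbd3 fell by 0.10 and 0.20 on the log2 scale, the first a call lost without Hdac1-deficient replicate 4 (-0.08), and its relative Mbd2, which binds methylated DNA, did not pass in either mutant (0.08 and -0.06). Gatad2a and Gatad2b encode bridging proteins of NuRD. Gatad2a passed upward in Hdac2-deficient enteroids (0.10, adjusted p = 0.0059, edgeR) and Gatad2b downward (-0.16, adjusted p = 0.0031, edgeR), and neither passed in Hdac1-deficient enteroids. Gatad2a lost its call without control replicate 4 (0.08). In Hdac1-deficient enteroids Gatad2b did not pass in 13 of 17 alternatives, the 1.5-fold test not counted. The fits where it passed included those without control replicate 1 or Hdac1-deficient replicate 1 (-0.13 and -0.12). Mbd2 passed in Hdac1-deficient enteroids without Hdac1-deficient replicate 4 (0.09). Rbbp4 and Rbbp7 encode WD40 histone chaperones shared by NuRD and SIN3. Rbbp4 was at 267.8, 260.8, 248.7 and 259.6 CPM in control, at 216.0, 227.6, 212.3 and 210.5 CPM after loss of Hdac1 and at 193.0, 202.6, 188.8 and 196.5 CPM after loss of Hdac2. The 3 groups were fully apart, with log2 fold changes of -0.24 (adjusted p = 3.5e-06, edgeR) and -0.40 (adjusted p = 4.5e-10, edgeR). Rbbp4 lies 180734 bases from Hdac1 on chromosome 4, and 1578 of its 8744 exon bases overlap Sync and Gm26722 on the opposite strand, which were at 0.434 and 0.42 CPM in control.

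**Figure D2:**
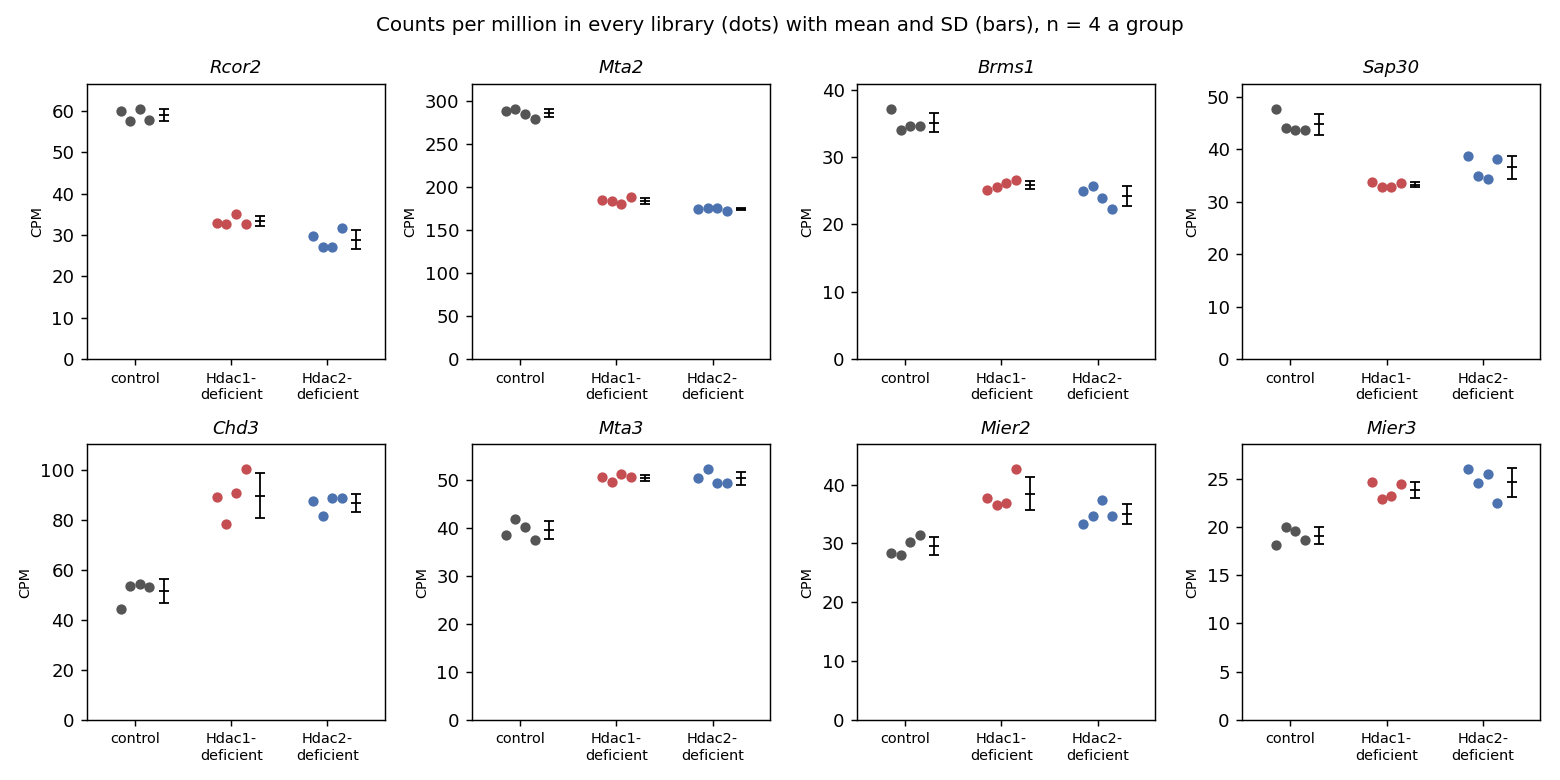
CPM in each library (y axes start at 0; dots) of 8 members in control, Hdac1-deficient and Hdac2-deficient enteroids (x axes), with the mean and SD beside the dots, n = 4. Rcor2, Mta2, Brms1 and Sap30 are lower in all mutant libraries than in any control library, and Chd3, Mta3, Mier2 and Mier3 are higher.

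In the SIN3 complex the scaffold gene Sin3a changed little. Of the 14 members, Rbbp4 and Rbbp7 included, 5 were higher and 6 lower in Hdac1-deficient enteroids (35.7% and 42.9%, beside 32.7% and 31.9% of all genes), and 1 was higher and 8 lower in Hdac2-deficient enteroids (7.14% and 57.1%, beside 31.4% and 30.9%), with medians of -0.01 and -0.12 on the log2 scale. Sin3a was at 91.7, 95.2, 93.7 and 90.3 CPM in control, at 95.9, 92.1, 93.1 and 87.8 CPM after loss of Hdac1 and at 87.1, 88.2, 84.9 and 85.8 CPM after loss of Hdac2. The Hdac1-deficient libraries overlapped control (log2 fold change 0.01, adjusted p = 0.88, edgeR), and the Hdac2-deficient libraries lay just under control (log2 fold change -0.09, adjusted p = 0.021, edgeR), a call lost without control replicate 2 or Hdac2-deficient replicate 3 (-0.08 in each case). Sin3b passed upward in Hdac1-deficient enteroids (0.14, adjusted p = 0.0090, edgeR), and its log2 fold change in Hdac2-deficient enteroids was 0.05.

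Of the SIN3-associated subunits, Sap30, which links SIN3 to DNA-binding factors, was at 47.7, 44.0, 43.6 and 43.6 CPM in control. It was at 33.8, 32.8, 32.8 and 33.6 CPM after loss of Hdac1 and at 38.7, 34.9, 34.4 and 38.1 CPM after loss of Hdac2. All mutant libraries were lower than control, with log2 fold changes of -0.41 (adjusted p = 6.5e-08, edgeR) and -0.28 (adjusted p = 2.4e-05, edgeR). Brms1, which encodes a subunit related to SUDS3 and lies on chromosome 19 (5041354 to 5049917, plus strand), was at 37.2, 34.0, 34.6 and 34.6 CPM in control. It was at 25.1, 25.6, 26.2 and 26.6 CPM after loss of Hdac1 and at 24.9, 25.8, 23.9 and 22.2 CPM after loss of Hdac2. It also fell without overlap (-0.43 and -0.52, adjusted p = 1.1e-07 and 1.4e-08, edgeR), close to the medians of its chromosome (-0.53 and -0.52). Of its 1750 exon bases, 1383 are shared with the annotated gene AC124502.3 on the same strand, so its counts are uncertain.

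Brms1l, the close relative of Brms1, was at 11.07, 11.74, 10.18 and 10.02 CPM in control, at 11.18, 11.04, 11.24 and 10.95 CPM after loss of Hdac1 and at 9.48, 9.96, 10.5 and 8.85 CPM after loss of Hdac2. The mutant libraries overlapped control in both comparisons. The chromatin readers Ing1 and Ing2, which bind methylated histone H3, were lower in both mutants (Ing1 -0.16 and -0.16, Ing2 -0.29 and -0.24). Sap130 was higher in both (0.27 and 0.21), and Arid4a and Arid4b, which encode RB-binding proteins, passed upward in Hdac1-deficient enteroids at 0.14 and 0.13, while their log2 fold changes in Hdac2-deficient enteroids were -0.02 and -0.02. The call of Arid4a was lost without control replicate 1 or Hdac1-deficient replicate 1 (0.10 and 0.11). Suds3, whose product helps to hold the deacetylase in SIN3, was at 152.2, 138.7, 140.5 and 143.5 CPM in control, at 159.8, 157.2, 158.5 and 167.2 CPM after loss of Hdac1 and at 146.3, 144.3, 138.4 and 147.8 CPM after loss of Hdac2. Its Hdac1-deficient libraries were all above control (0.18, adjusted p = 2.3e-04, edgeR), and its Hdac2-deficient libraries were mixed with control (0.02, adjusted p = 0.70). Sap18, with log2 fold changes of -0.02 and -0.10, passed in the second, lost that call when any of 5 libraries was left out (-0.11 to -0.08), and has a near-identical copy, Sap18b, that could take part of its reads.

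All 3 MIER genes were higher in Hdac1-deficient enteroids (100%, beside 32.7% of all genes). In Hdac2-deficient enteroids 2 of them, Mier2 and Mier3, were higher (66.7%, beside 31.4%). A set of 3 genes is too small for these shares to be read as a trait of the family. The MIER proteins carry an ELM2-SANT module, and whether each of the 3 holds a deacetylase in these cells was not measured. Mier2 was at 28.4, 28.1, 30.2 and 31.4 CPM in control, at 37.8, 36.6, 36.9 and 42.6 CPM after loss of Hdac1 and at 33.3, 34.6, 37.4 and 34.7 CPM after loss of Hdac2. Both mutants lay above control, by log2 fold changes of 0.40 (adjusted p = 2.6e-06, edgeR) and 0.26 (adjusted p = 1.6e-04, edgeR). Mier3 was at 18.2, 20.1, 19.6 and 18.6 CPM in control, at 24.7, 22.96, 23.3 and 24.4 CPM after loss of Hdac1 and at 26, 24.6, 25.5 and 22.6 CPM after loss of Hdac2. It also rose without overlap, by 0.33 (adjusted p = 1.6e-05, edgeR) and 0.38 (adjusted p = 5.3e-06, edgeR). Mier1 was at 61.9, 64.2, 63.9 and 61.1 CPM in control, at 72.3, 66.5, 66.8 and 74.9 CPM after loss of Hdac1 and at 67.0, 65.7, 68.9 and 61.3 CPM after loss of Hdac2. It rose in Hdac1-deficient enteroids (0.17, adjusted p = 0.0014, edgeR) and did not pass in Hdac2-deficient enteroids (0.08, adjusted p = 0.099, edgeR) unless Hdac2-deficient replicate 4 was left out (0.10).

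In the NCoR complex the scaffold gene Ncor1 did not pass in either mutant. Of the WD40 subunit genes, Tbl1x passed in both and Tbl1xr1 in Hdac2-deficient enteroids only. Of the 4 members 1 was higher and 1 lower in Hdac1-deficient enteroids (25% each, beside 32.7% and 31.9% of all genes). The same counts were found in Hdac2-deficient enteroids (25% each, beside 31.4% and 30.9%). Ncor1, the scaffold that docks on nuclear receptors and activates HDAC3, was at 229.5, 278.5, 276.7 and 257.2 CPM in control, at 297.9, 270.9, 251.2 and 275.8 CPM after loss of Hdac1 and at 274.4, 268.9, 273.0 and 275.6 CPM after loss of Hdac2. The groups overlapped, with log2 fold changes of 0.09 and 0.08, and the approximate 95% interval, from the SE, ran from -0.04 to 0.21 and from -0.02 to 0.18. Tbl1x was at 152.4, 161.7, 159.0 and 151.2 CPM in control, at 129.3, 122.2, 125.1 and 119.0 CPM after loss of Hdac1 and at 131.7, 137.3, 132.9 and 132.1 CPM after loss of Hdac2. It fell without overlap by 0.32 and 0.21 on the log2 scale (adjusted p = 1.3e-07 and 4.1e-06, edgeR). Tbl1xr1, which encodes its close relative, was at 52.6, 52.5, 51.3 and 52.8 CPM in control, at 51.7, 49.0, 48.7 and 50.9 CPM after loss of Hdac1 and at 63.1, 64.6, 63.1 and 59.9 CPM after loss of Hdac2. It was higher in every Hdac2-deficient library than in any other library, with a log2 fold change of 0.27 over control (adjusted p = 2.0e-06, edgeR), and did not pass in Hdac1-deficient enteroids (-0.05, adjusted p = 0.29, edgeR). Dnttip1, the tested MiDAC subunit gene, did not pass in either mutant (-0.03 and -0.07).

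Within sets of related genes, several proportions moved with genotype. Shares of the summed CPM per kilobase are given as descriptions with no test. Rcor2 supplied 45.6% ± 0.931 (SD, n = 4) of the RCOR sum in control, 30.2% ± 1.09 after loss of Hdac1 and 28.1% ± 2.01 after loss of Hdac2, and Rcor1 went from 51.1% to 65.5% and 67.4%. The RCOR sum itself was 41.0 CPM per kilobase in control and 35.0 and 32.6 in the mutants. Chd3 went from 12.8% ± 0.332 of the ATPase sum to 21.9% ± 2.02 and 21.9% ± 0.707, with a sum of 47.5, 48.4 and 46.8 CPM per kilobase. Mta3 went from 6.96% ± 0.213 of the MTA sum to 12.4% ± 0.294 and 12.6% ± 0.276, and Mta2 from 65.5% to 58.6% and 56.9%, while the MTA sum was 106.6, 76.7 and 74.9 CPM per kilobase. Tbl1xr1 went from 20.98% ± 0.68 of the sum with Tbl1x to 24.3% ± 0.745 and 27.1% ± 0.475. Rcor2 and Mta2 lie on chromosome 19, whose tested genes had a median log2 fold change of -0.53 and -0.52, and the part of this shift in the shares was not tested. For each gene named with its share here, the libraries of either mutant did not overlap control in their share.

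Other sets moved by up to a few percentage points. Brms1 went from 86.6% of the sum with Brms1l to 82.1% and 83.1%, and Mbd2 from 40.2% of the sum with Mbd3 to 43.3% and 42.7%, each without overlap with control. Arid4a supplied 68.6%, 68.8% and 68.6% of the ARID4 sum in the 3 groups, with overlapping libraries. Sin3a supplied 71.1% of the SIN3 scaffold sum in control and 69.2% and 69.0% in the mutants, where the Hdac1-deficient libraries overlapped control and the Hdac2-deficient libraries lay below it. The MIER sum was 14.7 CPM per kilobase in control and 18.1 and 17.1 in the mutants. Mier2 supplied 44.6%, 47.3% and 45.6% of it in overlapping libraries, and Mier1 went from 34.1% to 31.02% and 30.7%, below every control library.

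**Figure D3:**
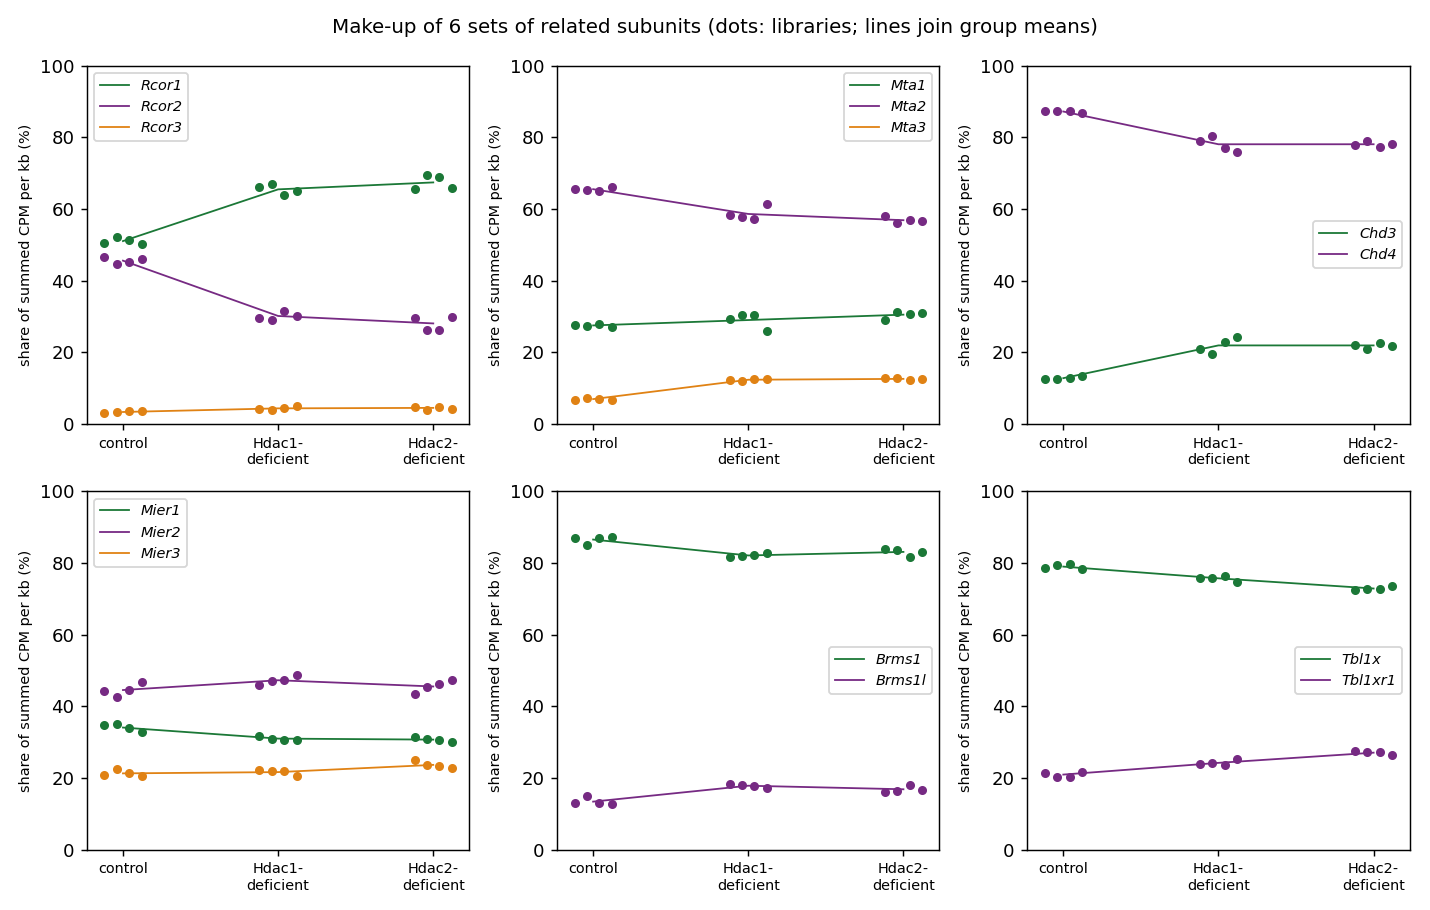
Share of the summed CPM per kilobase (y axis, percent) that each gene supplies within 6 sets of related subunits, in control, Hdac1-deficient and Hdac2-deficient enteroids (x axis). Dots are libraries and lines join the group means. Rcor2 drops from 45.6% to 30.2% and 28.1%, Chd3 and Mta3 gain, and Mier2 stays between 44.6% and 47.3% on average.

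Of the 5 members on chromosomes 19 and X, all were lower in both mutants, and the chromosomes differed in their background. On chromosome 19, 75.8% of 471 tested protein-coding genes were lower in Hdac1-deficient enteroids (median on the log2 scale -0.53), and 77.9% of 461 in Hdac2-deficient enteroids (median -0.52). The median of each other autosome lay between -0.05 and 0.06 for Hdac1 and between -0.01 and 0.12 for Hdac2. Brms1 lay close to the chromosome 19 median, 0.10 above it and 0.01 below it on the log2 scale. Mta2 differed from that median by -0.09 and -0.19, and Rcor2 by -0.28 and -0.50, with 78 of 471 and 29 of 461 genes of the chromosome lower still. Without the members on these 2 chromosomes, 14 of 33 members were higher and 8 lower in Hdac1-deficient enteroids (42.4% and 24.2%, beside 32.7% and 31.9% of all genes), and 8 higher and 12 lower in Hdac2-deficient enteroids (24.2% and 36.4%, beside 31.4% and 30.9%). The part of the chromosome-wide level in the falls of Rcor2, Mta2 and Brms1 was not tested further.

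Rbbp7 and Tbl1x are X-linked, and Xist, the RNA that coats the inactive X, was at 1.57 CPM in control, 917.2 CPM after loss of Hdac1 and 584.2 CPM after loss of Hdac2. The median of the X-linked genes was -0.02 and -0.04. Rbbp7 was at 281.7, 272.3, 270.1 and 268.1 CPM in control, at 247.2, 258.3, 249.7 and 235.3 CPM after loss of Hdac1 and at 239.5, 238.1, 230.5 and 229.5 CPM after loss of Hdac2. It fell without overlap by 0.13 and 0.21 on the log2 scale (adjusted p = 0.0027 and 1.6e-06, edgeR). The part of the difference in Xist in these changes was not tested. Whether the control and mutant lines differed in sex or in the copy number of a chromosome was not tested either, and with a single line per genotype such a difference cannot be told apart from the loss of the deacetylase in any fold change given here.

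**Figure D4:**
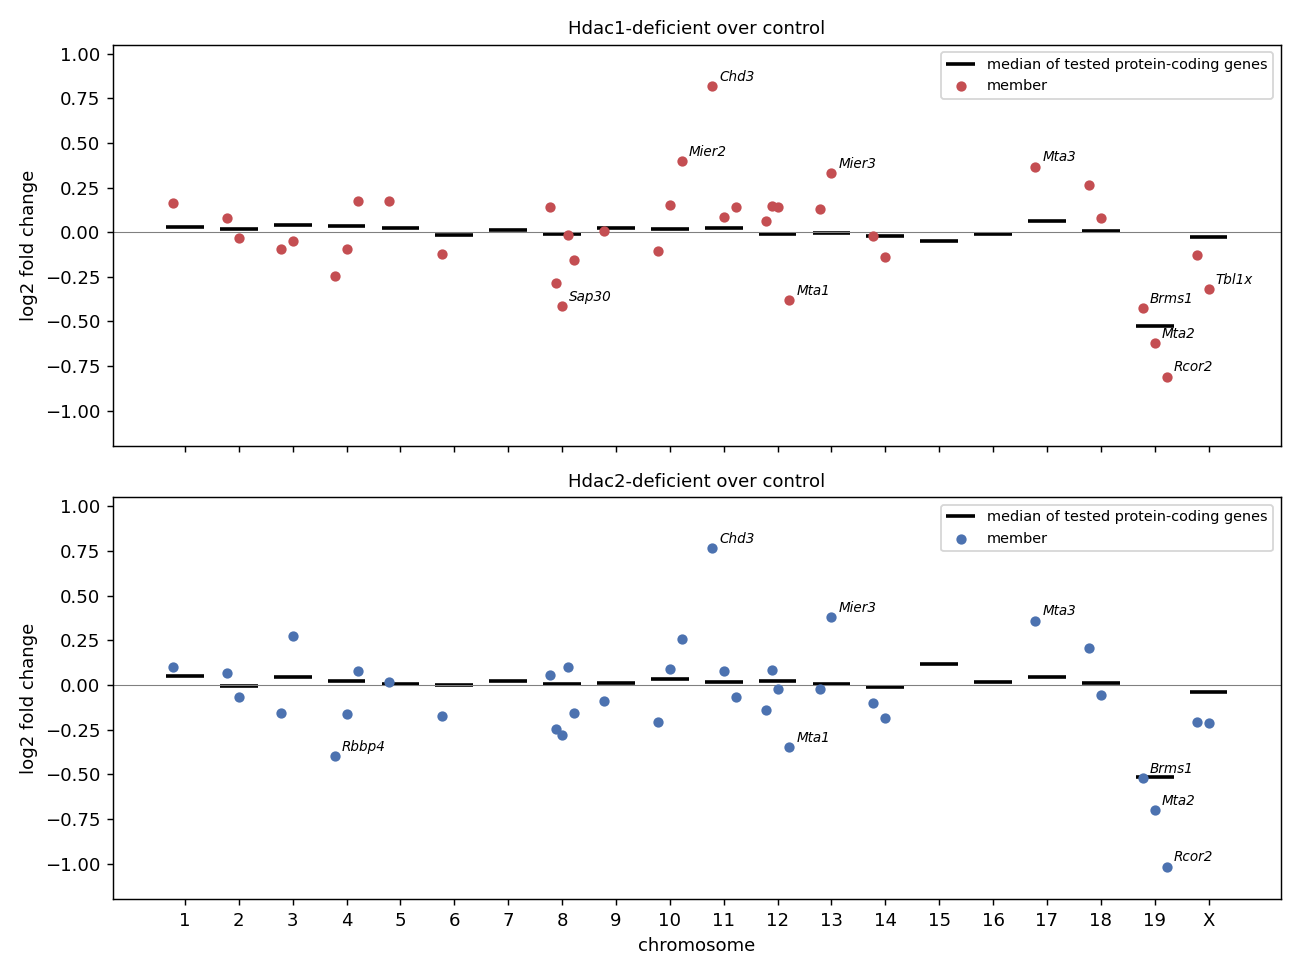
Log2 fold change (y axis) of the 38 tested members by chromosome (x axis), Hdac1-deficient over control above and Hdac2-deficient over control below. Dots are members, named where the change exceeds 0.3 in size, and black bars are the median of the tested protein-coding genes of the chromosome. The medians lie near 0 except on chromosome 19, at -0.53 and -0.52, where Brms1, Mta2 and Rcor2 lie.

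A direct comparison asked where the loss of Hdac1 and the loss of Hdac2 left the subunits at different levels. In a fit of all 12 libraries, 13 of 38 members were higher and 4 lower after loss of Hdac1 than after loss of Hdac2, or 34.2% and 10.5%, beside 22.3% and 23.7% of 14510 genes (edgeR). Scaled by library size alone, the split was 20 higher and 2 lower, so the split moved with the scaling. Over all 14510 genes it moved too, from 3229 higher and 3436 lower to 3825 and 2926. Tbl1x and Sap30 did not pass with library size alone. The median log2 difference over the members was 0.06, and over all genes 0.005. A difference of over 2-fold was passed by 0 members (5.62% of all genes), by edgeR and by DESeq2. An unadjusted p under 0.05 (edgeR) was found for 18 of 38 members, beside 7541 of 14510 genes. The difference was under 20% for 37 of 38 members, where 66.8% of all genes and 81.2% of the 9264 genes at or above the level of the lowest tested member were as close. Libraries of the mutants did not overlap for 11 members, or 28.9%, beside 41.7% of all genes.

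Tbl1xr1 was the exception to the small differences, with a log2 difference of -0.32, lower after loss of Hdac1 (SE 0.04, adjusted p = 5.9e-08, edgeR), and its relative Tbl1x differed by -0.11 (adjusted p = 0.0085, edgeR). Gps2, which encodes another subunit of the NCoR complex, moved the other way. It was at 28.6, 23.9, 25.7 and 25.4 CPM in control, at 28.7, 26.8, 28.2 and 29.6 CPM after loss of Hdac1 and at 25.2, 23.9, 24.3 and 24.8 CPM after loss of Hdac2, a log2 difference between the mutants of 0.21 (SE 0.05, adjusted p = 0.0024, edgeR). Its mutant groups were apart from each other, while the control libraries spanned both. Against control, Gps2 passed in Hdac1-deficient enteroids (0.14, adjusted p = 0.031, edgeR), a call lost when any of 6 libraries was left out (0.10 to 0.14). Rcor2 (0.21, adjusted p = 0.0012), Suds3 (0.16, adjusted p = 4.2e-04) and Rbbp4 (0.15, adjusted p = 4.2e-04) were also higher in Hdac1-deficient enteroids by edgeR, with no overlap. Mbd2 was at 116.6, 116.4, 116.8 and 110.6 CPM in control, at 118.0, 125.2, 121.5 and 116.0 CPM after loss of Hdac1 and at 110.5, 109.9, 112.8 and 105.9 CPM after loss of Hdac2, a log2 difference of 0.13 (adjusted p = 0.0016, edgeR).

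Sap30 was lower in Hdac1-deficient enteroids by 0.14 and Brms1l higher by 0.20, but each of these calls was lost when any of 3 libraries was left out (-0.12 to -0.11 for Sap30 and 0.16 to 0.19 for Brms1l). Mier2 (0.14), Sin3a (0.09) and Mbd3 (0.10) lost their call without any of 4 libraries, Rbbp7 (0.08) without any of 5, and Mta2 (0.08) without Hdac1-deficient or Hdac2-deficient replicate 4 (0.07 in each case). Arid4a (0.16) and Arid4b (0.15) were higher after loss of Hdac1 and Gatad2a lower (-0.12), and these calls held with each library left out. Chd3 and Mta3 did not pass between the mutants. The log2 difference was 0.05 for Chd3 (approximate 95% interval -0.10 to 0.20) and 0.01 for Mta3 (-0.07 to 0.08).

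**Figure D5:**
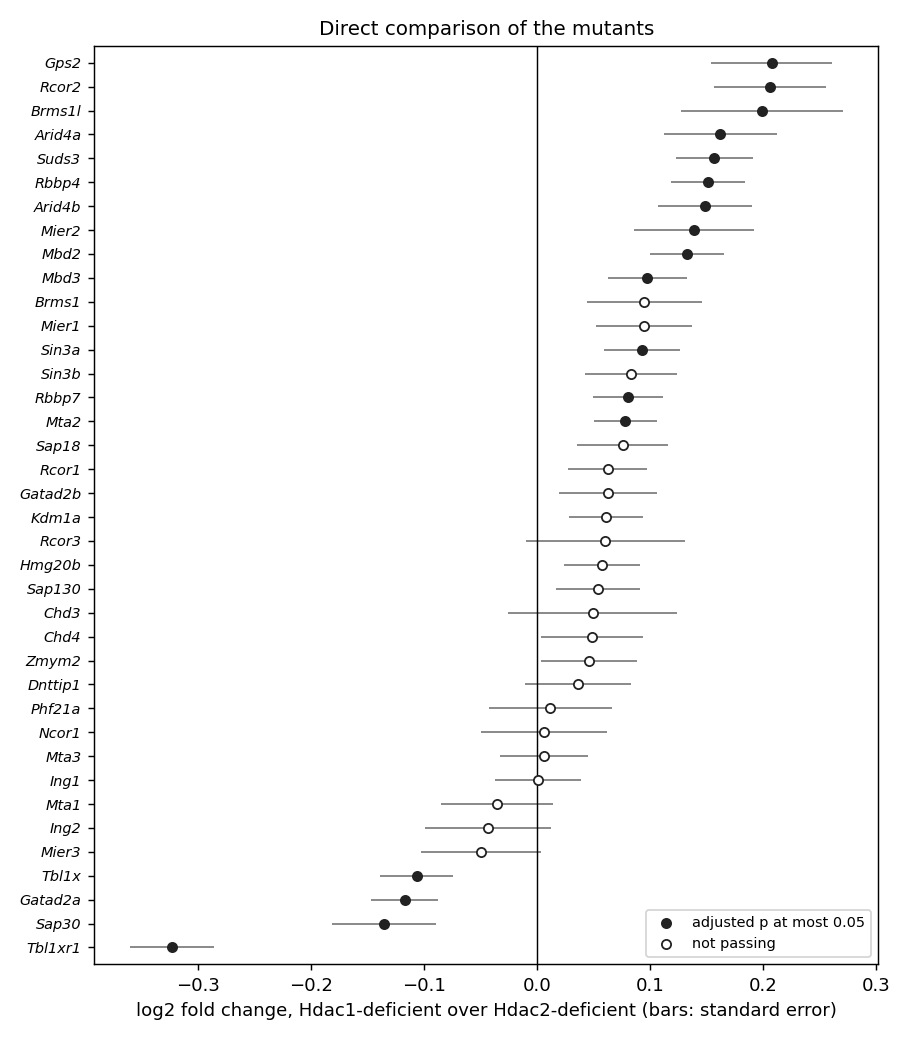
Log2 fold change of the 38 tested members (y axis) in Hdac1-deficient over Hdac2-deficient enteroids (x axis, bars are standard errors), ordered by size. Filled points passed an adjusted p of at most 0.05. Tbl1xr1 stands apart at -0.32, and all other members lie between -0.14 and 0.21.

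A list of 31 further genes known from the same complexes, of which 28 were listed in both tables, was tested in the same fits. In Hdac1-deficient enteroids 5 of 27 tested genes were higher and 10 lower (18.5% and 37.0%, beside 32.7% and 31.9% of all genes, edgeR, adjusted p of at most 0.05). In Hdac2-deficient enteroids 2 of 28 were higher and 10 lower (7.14% and 35.7%, beside 31.4% and 30.9%). Between the mutants 8 of 28 were higher and 4 lower after loss of Hdac1 (28.6% and 14.3%, beside 22.3% and 23.7%). Their median on the log2 scale was -0.04, -0.06 and 0.05. Pwwp2a, which encodes a histone-binding partner of NuRD, went from 46.7 ± 2.69 CPM (SD, n = 4) in control to 27.1 ± 1.25 and 24.9 ± 0.749 CPM, a log2 fold change of -0.77 and -0.89 (adjusted p = 6.2e-11 and 1.3e-12, edgeR). Coro2a, which encodes an actin-binding component of the NCoR complex, went the other way, from 292.3 ± 8.05 to 484.7 ± 15.1 and 534.8 ± 11.4 CPM, or 0.74 and 0.88 (adjusted p = 1.4e-13 and 4.3e-16, edgeR).

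Ogt, an X-linked gene for the O-GlcNAc transferase that binds SIN3A, was at 163.2 ± 21.3 CPM in control, at 257.8 ± 37.3 CPM after loss of Hdac1 and at 188.0 ± 19.3 CPM after loss of Hdac2. It passed in Hdac1-deficient enteroids (0.67, adjusted p = 0.0042, edgeR) and in the comparison of the mutants (0.46, adjusted p = 0.017, edgeR). Sap30l, the relative of Sap30, rose by log2 fold changes of 0.35 and 0.17, where Sap30 fell. Fam60a and Cdk2ap1, which encode subunits of SIN3 and NuRD, were lower in both mutants (Fam60a -0.32 and -0.44, Cdk2ap1 -0.29 and -0.33). Between the mutants, Zmynd8, a chromatin reader gene, was lower in Hdac1-deficient enteroids (-0.24), and Phf12, of the SIN3 complex, and Atn1, an atrophin gene, were higher (0.21 and 0.22). Changes of over 2-fold were passed by Sap25 in Hdac1-deficient enteroids and by Chd5 between the mutants, both under 1 CPM in every group.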

How the data were processed

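The samples were grouped by the genotype in their titles. The authors prepared poly(A) RNA libraries with a directional kit, sequenced paired reads on a HiSeq4000 and aligned them to GRCm38 with STAR (2.4.0f1 per the submitters' processing notes). The deposited counts are whole reads per gene, not normalized, and every listed gene has 10 or more over the 8 libraries of a table. Both tables hold the same 4 control libraries. The program and strand setting of the counting are not given in the sources used here. Beside the counts, the authors gave for every library a score (the count scaled per library and rounded), and per gene log2 fold changes with an average log2 CPM, and p-values from DESeq and edgeR, none of which was used.

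Counts were tested with edgeR (4.0.16, under R 4.3.3), taking its robust quasi-likelihood F test, TMM scaling, filterByExpr and Benjamini-Hochberg adjustment over all tested genes. Each mutant was fitted with control (8 libraries). The mutants were compared in a fit of all 12 on the 17972 genes in both tables. CPM values use TMM factors of all 12 libraries, and levels between genes are per kilobase of merged exon (GENCODE M21). Each standard error is the log2 fold change over the square root of F. The members and gene lists were chosen with earlier results of these data known. Per-library values are given for members over 2-fold, for the 8 largest changes per comparison among those called without overlap, for the scaffold genes Sin3a, Chd4, Rcor1, Ncor1 and Mier1, and for members on chromosomes 19 and X. Up to 4 further subunit genes with at least 1 CPM were named per comparison. Sap25 and Chd5 were named after their values were seen. The fits were tested on simulated counts.

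As alternatives, the test (DESeq2 1.42.0), the scaling (RLE size factors, library size alone, TMM factors from autosomes outside chromosome 19), the filter (none, or a mean count of 10), the threshold (a test against a 1.5-fold change, an adjusted p of 0.01), the libraries in the fit (all 12, or the 8 mutant libraries) and a replicate block were changed, and each library was left out in turn. Library pairs of a group differed beyond sampling noise (chi-square per gene 1.52 to 8.18), so none was counted as a duplicate.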

Additional observations from a re-analysis of the deposited data

Results flagged for a closer look

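In 8 of 117 groups of 4 libraries, taken over the 39 members and 3 genotypes, 1 library lay apart from the other 3 by more than the 95% limit of Dixon's gap test for 4 values, where chance alone flags about 1 group in 20 (5.85 of 117 groups). In control, replicate 1 stood at 47.7 CPM for Sap30 against 43.6 to 44.0 CPM in the others, and at 44.3 CPM for Chd3 against 53.3 to 54.3 CPM. Control replicate 4 stood at 26.4 CPM for Ing2 against 27.3 to 27.4 CPM, at 86.4 CPM for Mta1 against 92.1 to 93.2 CPM, at 110.6 CPM for Mbd2 against 116.4 to 116.8 CPM, and at 0.125 CPM for Trerf1 against 0.0332 to 0.0354 CPM, which is at most 3 counts. Hdac1-deficient replicate 3 stood at 35.1 CPM for Rcor2 against 32.6 to 33.0 CPM, and at 64.0 CPM for Zmym2 against 71.1 to 71.6 CPM. The call of Zmym2 in Hdac1-deficient enteroids was lost without that library (log2 fold change -0.10). The rise of Chd3 and the falls of Sap30, Ing2, Mta1 and Rcor2 passed with each library left out.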

How the results depend on the processing

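The counts of members higher, lower or changed over 2-fold moved by more than 1.5 times under 4 kinds of alternative. Against a 1.5-fold change, 1 member was higher and 1 lower in Hdac1-deficient enteroids, 1 and 2 in Hdac2-deficient enteroids, and 0 and 0 between the mutants. Over all genes that test gave 1161 and 746 of 14246, 955 and 505 of 14007, and 371 and 482 of 14510. Scaled by library size alone, 20 were higher and 2 lower between the mutants, and at an adjusted p of at most 0.01, 7 were higher. Of 14510 genes, 3825 were higher and 2926 lower under that scaling, and 2301 were higher at 0.01. With each library left out in turn, the members higher and lower numbered 11 to 14 and 12 to 15 for Hdac1, 6 to 9 and 15 to 17 for Hdac2, and 8 to 14 and 3 to 4 between the mutants, where the lowest, 8, was without Hdac2-deficient replicate 4. Over all genes they numbered 4475 to 4650 and 4313 to 4525 for Hdac1 (14393 to 14511 tested). For Hdac2 the ranges were 4132 to 4435 and 4105 to 4389 (14103 to 14258 tested), and between the mutants 2893 to 3160 and 3112 to 3270 (14656 to 14715 tested). Members changed over 2-fold in Hdac2-deficient enteroids numbered 0 to 1, with 0 without Hdac2-deficient replicate 2 or 3, where 1256 of 14226 and 1248 of 14207 genes passed. Of 38 members, 27, 30 and 16 kept their call and sign in the Hdac1, Hdac2 and direct comparisons under every alternative other than the 1.5-fold test.

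Among the 22 members with values per library, sign changes were seen only in values near 0 that did not pass. In Hdac1-deficient enteroids Sin3a was at -0.0035 with TMM factors from autosomes outside chromosome 19, at -0.0035 with no filter, at -0.0052 in the fit of 12 libraries, and at -0.011 to 0.0306 with a library left out. In Hdac2-deficient enteroids Suds3 was at -0.0139 with library size alone and at -0.0033 to 0.0410 with a library left out. Between the mutants, with a library left out, Chd3 was at -0.0072 to 0.12, Mta1 at -0.0700 to 0.0245, Mta3 at -0.0042 to 0.0251 and Ncor1 at -0.0345 to 0.0442.

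The deviations of same-numbered libraries correlated weakly across genes (-0.14 to 0.09 for Hdac1, 0.008 to 0.11 for Hdac2 and 0.01 to 0.15 between the mutants). Of the 4 libraries, 1, 1 and 3 correlated best with their own number. With 4 libraries a group this check cannot decide whether same-numbered libraries share a batch. With the replicate number as a block, 14 members were higher and 13 lower for Hdac1, 9 and 17 for Hdac2, and 13 and 4 between the mutants. Over all genes the block gave 4540 and 4383 of 14246, 4491 and 4400 of 14007, and 3266 and 3440 of 14510. Limits are the 4 libraries from possibly 1 mouse a group, the chromosome 19 shift, the shift in cell type markers and a strand setting that is not given.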
